A study of Mus musculus with 12 samples.

Results

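Skin carcinomas of mice lacking TAp63 were compared with carcinomas of wild-type (WT) mice, by RNA sequencing of 6 tumour libraries among the 12 of the study. The members are all libraries labelled as tumours exposed to ultraviolet radiation: 4 TAp63-/- cutaneous squamous cell carcinomas (cSCC) and 2 WT cSCC. The genotype and tissue labels chose them, and no measured value did. Earlier results of these data were known when these members and the 39 gene lists used below were chosen. All 6 tumours came from C57Bl6 mice older than 35 weeks that had been irradiated at 2.5 kJ/m2, 3 times a week. The other 6 libraries, used here as a background, are dorsal skin of untreated 4-week-old mice (3 WT, 3 TAp63-/-), so tumour and skin differ in age and exposure as well as in tissue. They differ in sex too: by Y-linked genes and Xist all 6 skin libraries were male, and 5 of the 6 tumours female. In every comparison with skin, Mup9 and chromosome X included, these differences cannot be told apart. The labels name no promoter, Cre line or clone for the TAp63-/- mice. The title of each library holds a number of its own, but the labels do not say whether it names a separate animal. The p-values therefore measure only the spread between these samples, part of which may be technical.

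Trp63 encodes p63, a transcription factor of the p53 family that maintains stratified epithelia. TAp63 isoforms carry an N-terminal transactivation domain, whereas ΔN isoforms start from an internal promoter and predominate in basal keratinocytes. TAp63 is known as a suppressor of tumours and metastasis and as a regulator of Dicer1 and of microRNAs, short RNAs that pair with messages through their seed and lower their translation and stability. Squamous carcinoma of the skin arises from keratinocytes after ultraviolet damage, and a tumour piece also holds stroma, vessels, immune cells and remnants of skin.

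Expression is given in FPKM, fragment counts scaled to transcript length and library size, a unit inferred from the tool and the values. The columns share 1 distribution, from which quantile normalization was inferred. A value would then follow the rank of the gene in its library, and the same value can recur for different genes. The read depth is unknown, so no counting error can be given, and a listed 0 does not show absence. Keratinocyte markers were high in all 6 tumours: Krt5 had 2545 to 3855 FPKM and Krt14 had 4268 to 14287. WT cSCC replicate 2 stood apart in hair genes and in likeness to skin. Its mean log2(FPKM + 1) over 19 hair shaft and sheath genes was 7.11. This mean was 1.02 in WT cSCC replicate 1 and 0.78 to 4.13 in the TAp63-/- tumours. In skin itself it ran from 0.90 to 7.58, so it does not measure how much skin a tumour piece held. Across genes the Pearson correlation of WT cSCC replicate 2 with mean skin was 0.869, against 0.780 to 0.823 for the other 5 tumours. The WT tumours correlated with each other at 0.864, TAp63-/- tumours with each other at 0.868 to 0.917, and tumours of unlike genotype at 0.842 to 0.935. Genotype therefore did not set the tumours apart across all genes. The male tumour was TAp63-/- cSCC replicate 1. Results are given with and without these libraries where that matters. In these bulk samples, fewer cells of a type and less RNA per cell cannot be told apart.

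The study's title concerns microRNAs regulated by TAp63. The study followed miR-30c-2* (now miR-30c-2-3p) and miR-497, and the 6 genes Kif18b, Aurka, Cdk6, Orc1, Pkmyt1 and Fat2. Mature sequences from RefSeq (GRCm38.p6), 5′ to 3′ with the seed (bases 2 to 8) in capitals, are shown because they define the question. They are encoded at chr1:23291754-23291775 (plus strand) and chr11:70234730-70234751 (plus strand), and their seeds differ.
mmu-miR-30c-2-3p: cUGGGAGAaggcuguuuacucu
mmu-miR-497a-5p: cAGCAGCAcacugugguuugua
The microRNA gene entries Mir30c-2 and Mir497 were listed at 0 in all 12 libraries, so the level of neither microRNA can be given here.

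Of the 6 followed-up genes, 3 averaged higher and 3 lower in TAp63-/- tumours, and none passed the test. Fat2, an atypical cadherin of keratinocytes, had 12.2 and 7.48 FPKM in WT against 22.0, 14.4, 14.6 and 19.1 in TAp63-/- tumours. It was the only gene of the 6 whose genotypes did not overlap, against 5.71% of all genes above (log2 difference 0.79, SE 0.30). Cdk6, a kinase of the G1 phase, had 21.3 and 11.6 FPKM against 15.7, 28.6, 29.6 and 23.9, and the groups overlapped (0.56, SE 0.36). Aurka, a mitotic kinase, had 33.2 and 17.7 against 16.2, 12.2, 20.4 and 24.0 (-0.44, SE 0.37), with WT cSCC replicate 1 the highest and a difference of -0.0058 without it. Kif18b, a mitotic kinesin, had 17.7 and 5.85 against 4.14, 7.21, 8.08 and 10.4 (-0.48, SE 0.49). Orc1, of the replication origin complex, differed by 0.10 (SE 0.38) and Pkmyt1, which inhibits Cdk1, by -0.17 (SE 0.33). The difference of Kif18b was 0.25 and that of Pkmyt1 0.15 without WT cSCC replicate 1, and that of Orc1 was -0.41 without WT cSCC replicate 2. The differences of these 3 genes and of Aurka thus rest on single WT tumours. Without WT cSCC replicate 2 the difference of Cdk6 was 0.15 and that of Fat2 0.46. They were 0.97 and 1.11 without WT cSCC replicate 1.

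The p53 family and the microRNA machinery did not separate the genotypes. Trp63 had 141 and 97.3 FPKM in WT tumours and 245, 109, 164 and 258 in TAp63-/- tumours (log2 difference 0.64, SE 0.41). TA and ΔN isoforms share this gene value, which therefore cannot check the deletion. Trp73 differed by 0.64 (SE 0.62) and Trp53 by -0.36 (SE 0.39), and the difference of Trp73 was -0.25 without WT cSCC replicate 2. Dicer1, the nuclease that cuts microRNA precursors, had 7.73 and 5.997 FPKM against 7.27, 6.83, 8.21 and 8.77 (0.16, SE 0.25). Of 13 tested genes of the microRNA machinery, 8 averaged higher and 5 lower. Eif2c1 (Argonaute 1) was the only 1 of them whose groups did not overlap, at 7.48 and 8.23 FPKM against 10.6, 12.8, 11.5 and 11.1, and 1 of 13 is near the 5.71% of all genes above. Of 19 targets of p53, 12 averaged higher and 7 lower, and all 19 overlapped, whereas 9.85% of all genes did not.

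Across the transcriptome, limma called 0 of 14752 genes at an adjusted p below 0.05 (0% called). At an unadjusted p below 0.05 there were 419 genes (2.84%), of which 143 were higher (0.969%) and 276 lower (1.87%) in TAp63-/- tumours. The lowest adjusted p was 0.126, for Zfp618, and every other gene had 0.656 or more, so p-values given below for single genes are limma's unadjusted ones. With 2 against 4 libraries a permutation test has 15 arrangements. With its tail doubled for a two-sided p it cannot go under 0.133, so it was not used. The libraries are therefore shown one by one. All 4 TAp63-/- tumours lay above both WT tumours for 842 genes (5.71%) and below both for 611 (4.14%). With a 2-fold difference as well, there were 61 higher (0.414%) and 177 lower (1.20%) genes. If labels were unrelated to expression, each of the 15 arrangements would be equally likely. The shares of 5.71% and 4.14% are no larger than that would give. A lack of overlap therefore describes a gene and is no evidence of a genotype effect.

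**Figure D1:**
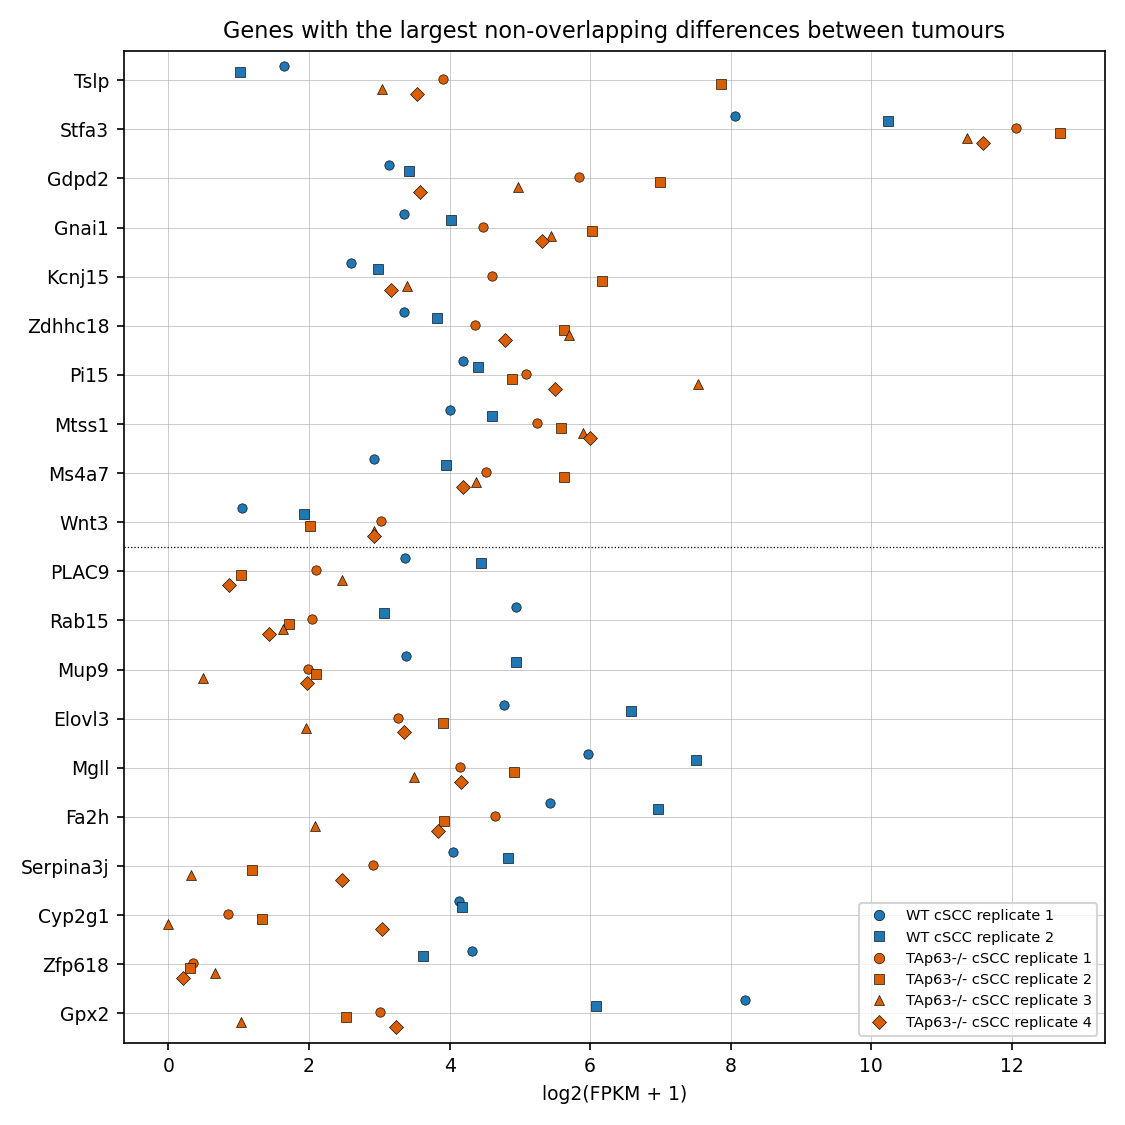
Log2(FPKM + 1) of 20 genes in each of the 6 tumour libraries, 1 point per library, WT in blue and TAp63-/- in orange. The 10 genes above the dotted line are higher and the 10 below it lower in TAp63-/- tumours, and Gpx2 has the largest difference of the 20.

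Zfp618 (chromosome 4, 62965573 to 63139708) encodes a zinc finger protein. In WT tumours its level was 19.03 and 11.3 FPKM, and in TAp63-/- tumours 0.280, 0.242, 0.576 and 0.153. All TAp63-/- values were below 1 FPKM, a log2 difference of -3.59 (SE 0.30, limma unadjusted p = 8.56e-06, adjusted p = 0.126; lower in 4 of 4 tumours). When all 12 libraries shared the estimate of spread, the limma adjusted p was 0.00121. That fit takes in skin, which differs from the tumours in age and exposure and would lend its smaller spread. Skin of either genotype also had little, with 0.175 to 1.09 FPKM (WT) and 0.136 to 0.568 FPKM (TAp63-/-). WT tumours therefore stood above the other 10 libraries. Within 400 kb, Orm1, an acute-phase serum protein gene, was also lower in all 4 TAp63-/- tumours (18.9 and 24.6 FPKM against 14.7, 6.30, 1.51 and 14.3). The neighbours Rgs3, Col27a1, Akna and Whrn overlapped; these neighbours were chosen after their values were seen.

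Antioxidant genes were lower in TAp63-/- tumours. NRF2 is a transcription factor that is released from KEAP1 under oxidative stress and switches on glutathione, thioredoxin and NADPH genes through antioxidant response elements. All 16 tested genes of the NRF2 and antioxidant list averaged lower, against 46.6% of all genes. Both WT tumours stood above all 4 TAp63-/- tumours for 5 of them, against 4.14% of all genes. The median log2 difference was -0.78, against 0.03 over all genes. None passed the test, and 3 had an unadjusted p below 0.05.

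Gpx2, a glutathione peroxidase of epithelia (chromosome 12, 76792335 to 76795554), had 293 and 66.8 FPKM in WT tumours and 7.03, 4.76, 1.04 and 8.42 in TAp63-/- tumours. The lowest WT tumour stood above the highest TAp63-/- tumour by a wide margin, and the log2 difference was -4.69 (SE 0.79, limma unadjusted p = 0.000641). Gpx2-ps1, a pseudogene named after its values were seen, had 31.7 and 8.31 FPKM against 0.381, 0.156, 0 and 0.291. Reads of Gpx2 and its pseudogene cannot be told apart with certainty, and the pair is no independent result. Rab15, a small GTPase gene of membrane traffic that starts at 76797960 next to Gpx2, had 29.8 and 7.36 FPKM against 3.10, 2.29, 2.10 and 1.70 (-2.30, SE 0.52). Fntb, which spans this place, had 21.7 and 19.2 against 24.2, 11.5, 26.5 and 22.4, and Churc1 and Max overlapped as well.

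Slc7a11, the cystine importer that feeds glutathione synthesis, had 17.0 and 8.58 FPKM in WT and 6.70, 7.06, 1.67 and 4.42 in TAp63-/- tumours (-1.26, SE 0.53). Gsta4, a glutathione transferase for lipid aldehydes, had 361 and 304 against 270, 133, 189 and 226 (-0.74, SE 0.33). The groups did not overlap for either gene, though the margins were narrow. Txnrd1, the cytosolic thioredoxin reductase, had 18.5 and 17.2 FPKM against 10.2, 15.3, 6.68 and 11.8 (-0.71, SE 0.34). G6pdx, which makes NADPH in the pentose phosphate pathway, had 85.7 and 105 against 71.0, 77.7, 40.8 and 58.6 (-0.64, SE 0.31). Gsta2, an alpha class glutathione transferase, had 2.20 and 5.30 against 2.74, 0.388, 0.656 and 0.771, and overlapped. The remaining 10 genes overlapped, among them Nqo1 and Hmox1, standard readouts of NRF2. Nqo1 had 18.3 and 22.3 FPKM against 34.2, 4.69, 9.79 and 8.46, with the male TAp63-/- tumour the highest of all. Glutathione transferases are a family of near-identical genes, and the split of reads among them is uncertain.

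**Figure D2:**
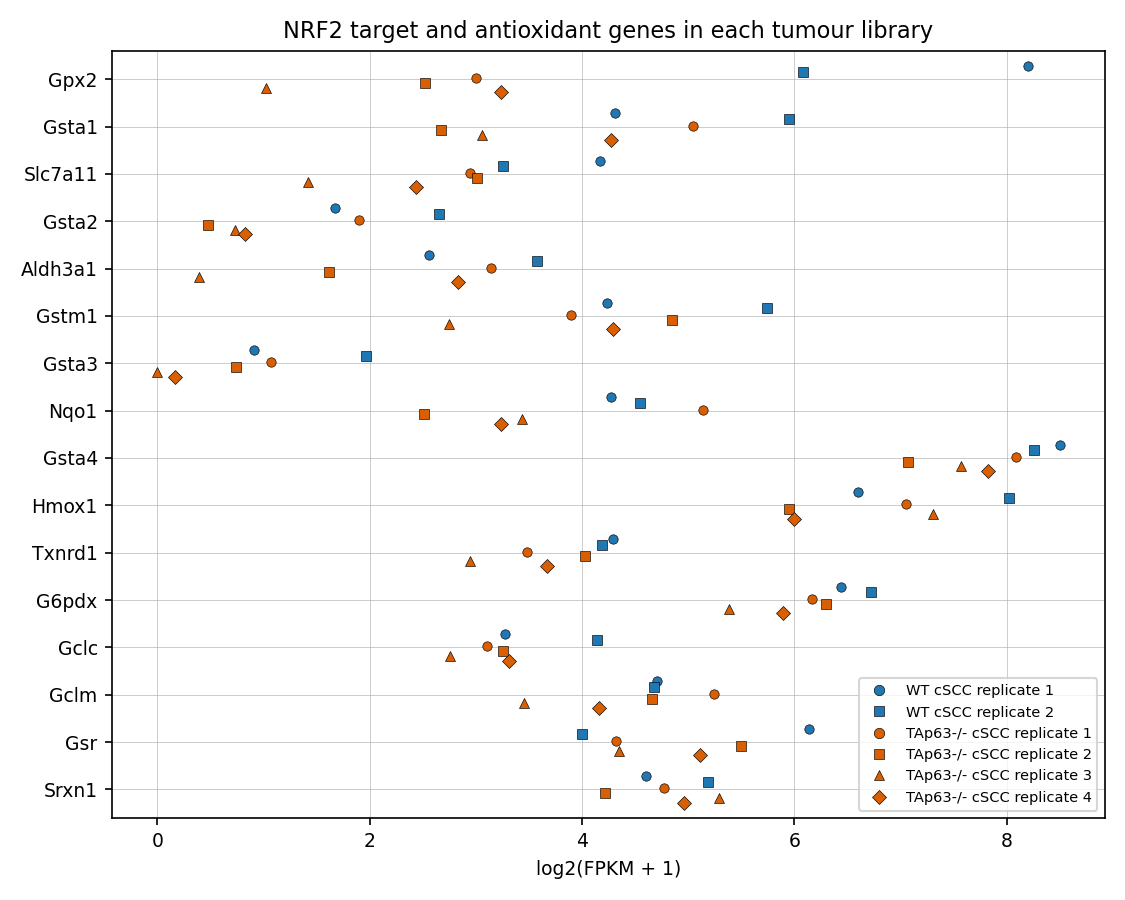
Log2(FPKM + 1) of the 16 tested NRF2 target and antioxidant genes in each tumour library, ordered by the log2 difference. WT tumours (blue) are to the right of all TAp63-/- tumours (orange) for Gpx2, Slc7a11, Gsta4, Txnrd1 and G6pdx, and overlap them for the other 11.

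Leaving out each tumour in turn, 15 or 16 of the 16 genes stayed lower and the median ran from -0.996 to -0.56. The list's mean log2(FPKM + 1) was 4.68 and 4.93 in WT tumours, 4.27, 3.71, 3.24 and 3.89 in TAp63-/- tumours and 3.42 to 3.83 in the 6 skin libraries. Both WT tumours therefore stood above all 4 TAp63-/- tumours and all 6 skin libraries.

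The upstream sequences of Txnrd1 and G6pdx are shown because they hold the core of the antioxidant response element, TGACNNNGC, searched on either strand. They are the 250 bases before the gene start (RefSeq, GRCm38.p6), 5′ to 3′ along the gene, with the core in capitals; in both it reads on the opposite strand. The Txnrd1 stretch is chr10:82858956-82859205 (plus strand) and the G6pdx stretch chrX:74428881-74429130 (minus strand).
Txnrd1: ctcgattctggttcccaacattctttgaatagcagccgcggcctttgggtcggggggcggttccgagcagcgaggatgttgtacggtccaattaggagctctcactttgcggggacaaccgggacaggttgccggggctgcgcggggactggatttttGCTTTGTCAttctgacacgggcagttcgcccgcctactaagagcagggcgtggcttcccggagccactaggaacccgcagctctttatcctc
G6pdx: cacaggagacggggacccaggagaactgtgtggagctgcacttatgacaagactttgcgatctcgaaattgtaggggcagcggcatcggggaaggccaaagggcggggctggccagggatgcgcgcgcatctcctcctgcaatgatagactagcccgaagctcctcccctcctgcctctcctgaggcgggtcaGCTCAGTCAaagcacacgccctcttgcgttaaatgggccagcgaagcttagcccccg
Of the 16 genes, 11 had a promoter window (250 bases before to 50 after the start), 14 windows in all. The core was in 4 of these 14 windows (28.6%), of Txnrd1, G6pdx, Gclm and Gsta3, against 3338 of 32851 windows of all genes (10.2%). A match describes letters and is no evidence of binding.

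Lipid genes of the sebaceous gland were lower in TAp63-/- tumours. Sebocytes fill with wax esters and triglycerides and line the hair follicle. Of 11 tested genes, 10 averaged lower (46.6% of all genes did), and for 5 of them the TAp63-/- tumours were all below (4.14% of all genes). The median log2 difference was -0.98. Elovl3, which elongates saturated fatty acids, had 26.3 and 94.5 FPKM in WT and 8.63, 14.02, 2.88 and 9.25 in TAp63-/- tumours (-2.55, SE 0.67). Scd1, the Δ9 desaturase, had 152 and 606 against 81.6, 128, 14.6 and 93.9 (-2.27, SE 0.94). Awat1, a wax ester synthase, had 12.1 and 48.0 against 5.25, 7.18, 0.876 and 9.001 (-2.19, SE 0.80). WT cSCC replicate 2 was the highest tumour for these 3 genes, and WT cSCC replicate 1 was the next. Far2, which makes fatty alcohols, differed by -1.82 (SE 0.57), and Soat1, which esterifies cholesterol, by -1.53 (SE 0.47), both without overlap.

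Mgll and Fa2h, also lipid genes, were among the 10 largest lower differences, and Cidea is of the adipocyte list. Mgll, monoglyceride lipase, had 61.5 and 181 FPKM against 16.7, 29.1, 10.3 and 16.8 (-2.56, SE 0.53, limma unadjusted p = 0.00207). Fa2h, which hydroxylates fatty acids of sphingolipids, had 42.0 and 124 against 23.9, 14.2, 3.23 and 13.3 (-2.57, SE 0.75). Cidea, a lipid droplet protein of sebocytes and fat, had 11.3 and 32.3 against 6.79, 8.16, 5.92 and 5.005 (-1.45, SE 0.43). In each case the TAp63-/- tumours were all below both WT tumours. Of 13 adipocyte genes, Cidea was the only 1 like this, against 4.14% of all genes.

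Lists of fat, muscle and hair genes moved in the same direction as these lipid genes. The sebaceous list mean was 3.74 and 5.16 in WT tumours, 3.598, 3.32, 2.43 and 3.51 in TAp63-/- tumours and 4.98 to 5.60 in skin. When WT cSCC replicate 2 was left out, 7 of 11 genes were lower, the median was -0.16, and 5 were still below WT cSCC replicate 1 in all 4 TAp63-/- tumours. With 1 WT tumour left, 20.3% of all genes are below. Of 13 adipocyte genes all 13 averaged lower (list means 3.00 and 4.93 in WT, 1.60 to 3.74 in TAp63-/-), of 15 skeletal muscle genes all 15 (3.56 and 5.95, 2.44 to 4.70) and of 19 hair genes 18. Of the fat markers Adipoq had 3.33 and 25.3 FPKM in WT and 0.545 to 6.37 in TAp63-/- tumours. Of the hair markers Krt71 had 1.12 and 1130 and 0.120 to 118, and Krt31 was listed at 0 in TAp63-/- cSCC replicate 3. The muscle marker Ckm had 21.4 and 144 FPKM and 6.31 to 49.5. On leaving out WT cSCC replicate 2, 8 of 15 muscle genes and 1 of 19 hair genes were lower. The part of remaining skin in the lipid genes was not tested.

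Genes of other roles also lay among the 10 largest lower differences. Cyp2g1, a cytochrome P450 gene best known from olfactory mucosa, had 16.6 and 17.1 FPKM in WT and 0.805, 1.51, 0 and 7.20 in TAp63-/- tumours, and at most 3.30 in skin (-2.86, SE 0.77). As with Zfp618 and Gpx2, its WT tumour level was above that of WT skin (0.0446 to 0.242). Serpina3j, of the mouse cluster of serine protease inhibitors, had 15.6 and 27.6 against 6.55, 1.27, 0.252 and 4.53 (-2.72, SE 0.75). Mup9, of the major urinary proteins, had 9.45 and 29.9 against 2.95, 3.26, 0.407 and 2.91 (-2.53, SE 0.62). PLAC9, a gene for a small secreted protein, had 9.35 and 20.8 against 3.29, 1.04, 4.52 and 0.814 (-2.30, SE 0.57). These 3 were at 6.03 to 411 FPKM in skin, with values in either genotype mostly above those of the tumours. Serpina3j and Mup9 have near-identical neighbours, and how reads were split among them is not given in the sources used here.

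Stefin A genes averaged higher in TAp63-/- tumours. Stefins inhibit cysteine cathepsins, and the mouse holds a cluster of near-identical copies on chromosome 16, so shares between copies are uncertain. All 6 tested genes averaged higher (53.3% of all genes did), with a median log2 difference of 1.23. Stfa3 (36450537 to 36455392) had 266 and 1210 FPKM in WT and 4268, 6594, 2639 and 3085 in TAp63-/- tumours (2.78, SE 0.70, limma unadjusted p = 0.00589). Every TAp63-/- tumour exceeded both WT tumours for this gene only of the 6, against 5.71% of all genes. BC100530 had 993 and 2994 against 8072, 1847, 3085 and 4070 (1.10, SE 0.73), and Stfa2 had 110 and 957 against 1002, 1269, 787 and 787 (1.53, SE 0.80). The list mean was 6.79 and 8.37 in WT and 9.67, 8.83, 8.60 and 9.09 in TAp63-/- tumours, with no overlap, and 0.34 to 3.45 in skin. Leaving out WT cSCC replicate 1, the lowest tumour, gave 5 of 6 genes higher and a median of 0.53. Trp63 lies on the same chromosome, at 25683763 to 25892102.

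The other 9 of the 10 named higher genes had varied roles. Tslp, a cytokine that keratinocytes release on barrier damage, had 2.14 and 1.01 FPKM in WT and 13.99, 232, 7.21 and 10.6 in TAp63-/- tumours (3.26, SE 1.30). All 4 were above, and TAp63-/- cSCC replicate 2 was far above the rest. Mtss1, a membrane-bending actin regulator, had 15.1 and 23.3 against 37.0, 46.9, 58.8 and 62.6 (1.38, SE 0.31, limma unadjusted p = 0.00305), the lowest p of the 10 named higher genes. Gnai1, an inhibitory G protein subunit, had 9.17 and 15.3 against 21.2, 64.2, 42.3 and 38.6 (1.62, SE 0.45). Zdhhc18, a palmitoyl transferase, had 9.22 and 13.2 against 19.5, 48.4, 50.7 and 26.6 (1.53, SE 0.44). These 3 genes separated the genotypes without a single extreme library.

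Gdpd2, a glycerophosphodiesterase, had 7.78 and 9.75 FPKM against 56.4, 127, 30.4 and 10.997 (2.07, SE 0.86). Kcnj15, a potassium channel, had 5.05 and 6.88 against 23.3, 70.8, 9.47 and 7.98 (1.54, SE 0.83), so TAp63-/- cSCC replicate 4 was close to the WT tumours for both genes. Pi15, a secreted protease inhibitor, had 17.3 and 20.1 against 33.1, 28.7, 184 and 44.3 (1.46, SE 0.73). Wnt3, a Wnt ligand of the epidermis, had 1.06 and 2.81 against 7.15, 3.02, 6.59 and 6.61 (1.23, SE 0.42), and skin had 5.33 to 10.8. Wnt3 was thus low in the WT tumours and near skin level in 3 of the 4 TAp63-/- tumours. Of 17 tested Wnt genes 8 averaged higher and 9 lower. Ms4a7, a marker of macrophages, had 6.57 and 14.4 against 21.9, 48.4, 19.7 and 17.3 (1.24, SE 0.49).

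Genes of the cell cycle averaged lower in TAp63-/- tumours, and that direction rested on 1 WT tumour. Of 28 mitosis genes 25 averaged lower (median -0.23) and of 25 DNA replication genes 20 (median -0.15). None of them was free of overlap, whereas 9.85% of all genes were. Plk1, a mitotic kinase, had 34.9 and 11.3 FPKM in WT and 9.77, 9.60, 15.2 and 17.9 in TAp63-/- tumours (-0.62, SE 0.48). Mcm3, of the replicative helicase, had 30.7 and 10.9 against 6.34, 12.9, 13.4 and 13.4 (-0.69, SE 0.48). The mitosis list mean was 4.64 in WT cSCC replicate 1, the highest of all, and 3.65 in WT cSCC replicate 2, against 3.44, 3.74, 4.20 and 4.23. When WT cSCC replicate 1 was left out, 1 of 28 mitosis and 4 of 25 replication genes were lower, with medians of 0.20 and 0.35. When WT cSCC replicate 2 was left out instead, it was 28 and 23, with medians of -0.67 for each list.

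**Figure D3:**
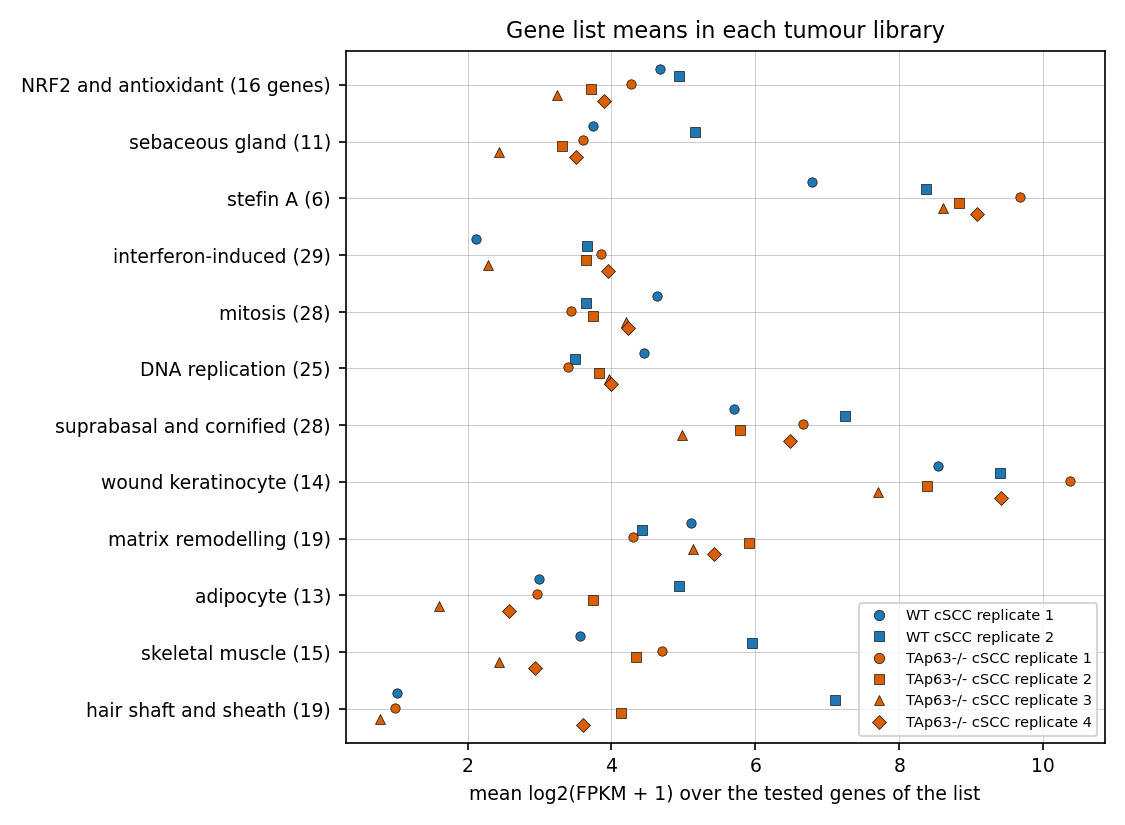
Mean log2(FPKM + 1) over the tested genes of 12 lists in each tumour library, WT in blue and TAp63-/- in orange, with the number of genes in brackets. WT and TAp63-/- tumours do not overlap for the antioxidant, sebaceous and stefin A lists, with narrow margins for the sebaceous and stefin A lists. The WT tumours lie far apart from each other for hair, muscle, adipocyte and interferon genes, and also for the sebaceous and stefin A lists.

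Keratinocyte differentiation varied more among tumours than between genotypes. Of 28 suprabasal and cornified layer genes 21 averaged lower (median -0.55), against 46.6% of all genes. Of the 28, Flg2 alone did not overlap, near the 4.14% of all genes below. Flg2, a filaggrin-like protein, had 3.63 and 5.22 FPKM against 2.31, 2.04, 0.531 and 2.14 (-1.02, SE 0.39), and skin had 39.6 to 121. The suprabasal median was 0.42 without WT cSCC replicate 2. Of 14 wound keratinocyte genes 5 averaged higher and 9 lower (median -0.15). Krt6a, a keratin of wound edges, had 3855 and 8072 against 2685, 1461, 3696 and 3262 (-1.09, SE 0.58). It was the only 1 of the 14 without overlap, against 4.14% of all genes below. Of 13 basal keratinocyte genes 4 averaged higher and 9 lower (median -0.16).

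Epcam, an epithelial adhesion molecule also found on Langerhans cells, stood apart in this group. It had 51.1 and 28.8 FPKM in WT and 8.76, 6.53, 10.9 and 12.9 in TAp63-/- tumours (-1.91, SE 0.35, limma unadjusted p = 0.00115), and skin of either genotype had 21.6 to 41.1. All 4 TAp63-/- tumours were thus below every WT tumour and every skin library. Cdh1, E-cadherin, had 89.3 and 91.9 against 89.1, 46.8, 60.8 and 86.5 (-0.40, SE 0.32). Krt18, a simple epithelial keratin, had 96.4 FPKM in WT cSCC replicate 1 and 0.678 to 4.12 in the other 5 tumours. Of 15 simple epithelial and mesenchymal genes 8 averaged higher and 7 lower.

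Transforming growth factor β (TGF-β) signals from stroma and epithelium through receptor kinases and SMAD proteins and curbs keratinocyte growth. Of 18 genes of TGF-β and bone morphogenetic protein signalling 10 averaged higher and 8 lower, with 4 above (5.71% of all genes) and 1 below (4.14%) without overlap. The ligand Tgfb2 had 5.58 and 4.06 FPKM in WT and 6.68, 7.12, 8.10 and 10.5 in TAp63-/- tumours (0.64, SE 0.28). Ltbp1, which anchors the latent ligand in the matrix, had 8.75 and 6.61 against 14.9, 19.5, 15.4 and 12.1 (0.92, SE 0.27, limma unadjusted p = 0.0127). The receptor Tgfbr1 had 11.4 and 8.92 against 15.4, 26.3, 21.9 and 11.8 (0.78, SE 0.36). The fourth was Smad2, at 24.3 and 23.2 against 27.6, 26.1, 31.6 and 33.1, and Bmp2 was the gene below.

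Of 19 matrix remodelling genes 16 averaged higher, with a median of 0.30. Postn, periostin of reactive stroma, had 311 and 209 FPKM against 378, 466, 384 and 376 (0.64, SE 0.27). It was 1 of 2 genes of this list above without overlap, against 5.71% of all genes. Spp1, osteopontin, had 36.0 and 9.88 against 46.2, 886, 27.1 and 36.9, and Mmp12, macrophage elastase, had 52.1 and 11.4 against 72.3, 909, 33.4 and 28.7. The highest by far for both was TAp63-/- cSCC replicate 2. The log2 differences of Spp1 (2.03) and Mmp12 (1.82) were 0.88 and 0.71 without that library, and 1.15 and 0.77 without WT cSCC replicate 2. Of the 19, 10 were higher without WT cSCC replicate 2. Of the immediate early genes, 5 of 15 averaged higher and 10 lower. Fosl1, an AP-1 subunit, had 18.3 and 16.5 against 5.47, 9.67, 9.78 and 11.9 (-0.89, SE 0.33), and skin had at most 0.651.

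Interferon-induced genes averaged higher in TAp63-/- tumours, all 29 of 29, with a median of 0.54, but every gene overlapped. Of all tested genes, 9.85% did not overlap. Ifit3, which binds viral RNA complexes, had 0.975 and 3.45 FPKM in WT and 6.30, 6.29, 2.06 and 6.89 in TAp63-/- tumours (1.01, SE 0.52). The list mean was 2.12 and 3.66 in WT and 3.85, 3.65, 2.28 and 3.95 in TAp63-/- tumours. WT cSCC replicate 1 and TAp63-/- cSCC replicate 3 were thus low and the other 4 tumours were at 1 level, whatever the genotype. The count was 9 of 29 and the median -0.23 without WT cSCC replicate 1.

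Immune cell markers overlapped with few exceptions. Of 15 macrophage genes 11 averaged higher, of 9 neutrophil genes 8, of 19 T and NK cell genes 8, of 8 mast cell genes 6 and of 16 MHC genes 12. Ms4a7 was the only 1 of these genes whose genotypes did not overlap, whereas 9.85% of all genes did not. Of 20 chemokine and cytokine genes 6 averaged higher and 14 lower, and Tslp alone did not overlap. TAp63-/- cSCC replicate 2 held the highest macrophage (5.26), neutrophil (4.33) and mast cell (4.56) list means of the 6 tumours. The mast cell tryptase gene Tpsab1 had 138 FPKM there and 0.184 to 15.2 in the other 5. Of the B and plasma cell markers Cd79a and Ms4a1 were at or near 0 in all 6 tumours, at most 0.681 FPKM, and of 4 tested genes 2 averaged higher and 2 lower. Of 6 Langerhans and dendritic cell genes 2 averaged higher and 4 lower, and only Epcam did not overlap.

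Other lists showed no genotype pattern beyond the counts. Endothelial genes averaged higher in 3 of 10 cases, fibroblast genes in 6 of 10 and melanocyte genes in 1 of 10. Glycolysis and hypoxia genes did so in 6 of 18 cases, and genes of the epidermal growth factor receptor pathway in 3 of 11. All genes of these lists overlapped, as did most of all tested genes (9.85% did not). Of 19 nuclear oxidative phosphorylation genes 6 averaged higher. Ndufv1, a subunit of complex I, had 49.0 and 35.3 FPKM against 24.3, 26.8, 27.4 and 31.8 (-0.58, SE 0.24), and was the only gene of that list without overlap, near the 4.14% of all genes below. Of 15 Notch genes 7 averaged higher and 8 lower. Notch1, a receptor that drives differentiation and is often lost in cSCC, had 12.4 and 12.8 against 10.3, 10.8, 4.73 and 9.20 (-0.53, SE 0.35). It was the only 1 of the 15 Notch genes without overlap, near the 4.14% of all genes below. Of 7 serpin B genes 1 averaged higher and 6 lower, all with overlap.

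Whether the genotype difference in tumours departed from that in skin was tested as an interaction over the 12 libraries. Limma called 4 of 14752 genes (0.0271%), and 444 had an unadjusted p below 0.05 (3.01%). Zfp618 was the only call that came from the tumours. Its difference was -3.59 in tumours and -0.28 in skin, an interaction of -3.31 (SE 0.40, limma adjusted p = 0.0163; the alternatives, all negative, gave adjusted p up to 0.627, with a pseudocount of 0.1). Gpx2 differed by -1.03 in skin, and its interaction of -3.66 (SE 1.16) did not pass. Epcam differed by -0.13 in skin, with an interaction of -1.78 (SE 0.44) that did not pass either (limma adjusted p = 0.70).

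The other 3 calls were Skint genes, membrane proteins of keratinocytes that shape skin γδ T cells, and there the difference lay in skin. Skint9 reached 54.0 to 102 FPKM in skin of TAp63-/- mice, while WT skin stayed at or under 0.0369. In tumours it had 4.18 and 3.41 in WT and 1.25, 1.31, 0.395 and 1.52 in TAp63-/-, so the order of the genotypes was opposite (interaction -7.40, SE 0.39, limma adjusted p = 1.47e-05). Skint3 had 7.57 and 15.1 FPKM in WT tumours and 16.1, 7.79, 3.46 and 9.28 in TAp63-/- tumours (interaction -5.83, SE 0.64, limma adjusted p = 0.0119). Skint4 had 2.41 and 2.84 against 3.80, 1.02, 0.759 and 3.29 (interaction -4.61, SE 0.52, limma adjusted p = 0.0119). WT tumours thus had Skint3 and Skint4 at levels of TAp63-/- tumours although WT skin had close to none. Of 11 Skint genes 2 averaged higher and 9 lower in TAp63-/- tumours. Skint genes are near-identical neighbours, and the split of reads among them is uncertain. Skint3 and Skint4 lost their calls without WT cSCC replicate 2 (limma adjusted p = 0.0707 and 0.0748), WT skin replicate 2 (0.0559 for both) or TAp63-/- skin replicate 2 (0.0675 and 0.0685). Zfp618 lost its call without TAp63-/- cSCC replicate 1, 2 or 4 (limma adjusted p = 0.0545, 0.0528 and 0.0601), without WT skin replicate 2 (0.0559) and without TAp63-/- skin replicate 2 or 3 (0.0815 and 0.0635).

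**Figure D4:**
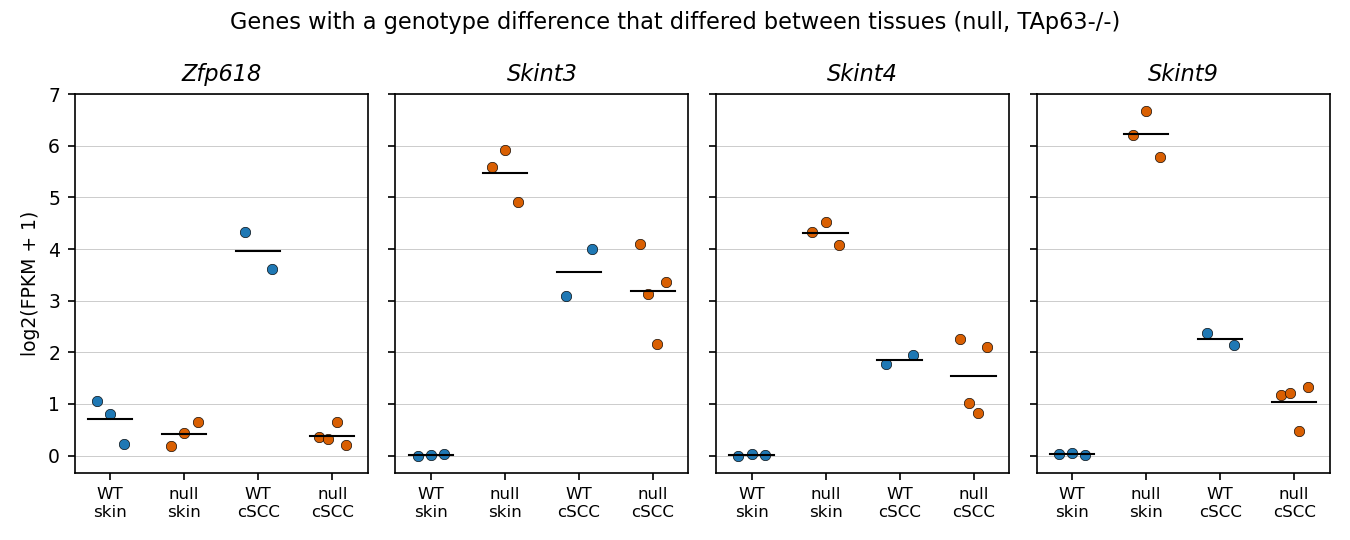
Log2(FPKM + 1) of Zfp618, Skint3, Skint4 and Skint9 in the 12 libraries by genotype and tissue, 1 point per library with the group mean as a line. Zfp618 is high in WT tumours alone, whereas the Skint genes are highest in TAp63-/- skin and near 0 in WT skin.

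Tumours also differed along whole chromosomes, a comparison chosen after the data were seen. For genes at 5 FPKM or more on average in tumours and in skin, the log2 difference of each library from mean skin was taken, less the library's median, and its median was computed per chromosome. The skin libraries, which form the baseline, lay between -0.05 and 0.06 on all chromosomes. WT cSCC replicate 1 exceeded 0.1 in size on 10 of 20 chromosomes, from -0.33 on chromosome 14 (279 genes) to 0.25 on chromosome 5 (494 genes). WT cSCC replicate 2, the skin-like tumour, did so on 0. TAp63-/- cSCC replicate 3 had 0.39 on chromosome 4 and 0.42 on chromosome 5, and TAp63-/- cSCC replicate 4 had -0.34 on chromosome 19. TAp63-/- cSCC replicate 2 had 0.23 on chromosome 14 and 0.56 on chromosome X, where the 4 other female tumours lay between -0.18 and -0.03 and the skin baseline is male.

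**Figure D5:**
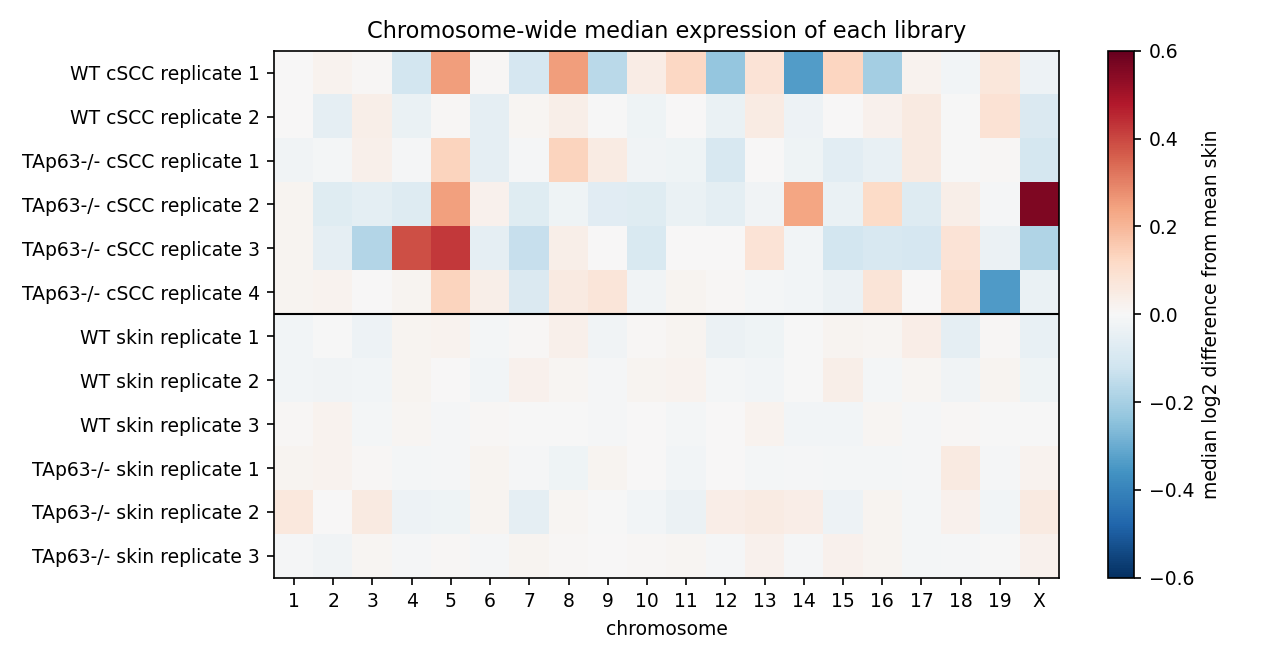
Median log2 difference from mean skin for each chromosome (columns) in each library (rows), less the library's own median, red above and blue below 0. Chromosome 5 is above 0.1 in 5 of the 6 tumours, and chromosome X is above 0.1 in TAp63-/- cSCC replicate 2 alone.

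The share of genes without overlap was also counted per chromosome. Chromosome 5 was above 0.1 in WT cSCC replicate 1 and in all 4 TAp63-/- tumours. On chromosome 14, where WT cSCC replicate 1 was low, 82 of 508 tested genes were above and 15 below in all TAp63-/- tumours, 19.1% without overlap against 9.85% of all genes. On chromosome 19, where TAp63-/- cSCC replicate 4 was low, 8 of 496 genes were above and 44 below, 10.5% without overlap. Chromosomes 13 (13.8%), 15 (13.4%) and 4 (12.6%) also exceeded the share of all genes, and chromosome 5 did not (9.79%). Elovl3 and Scd1 lie on chromosome 19, PLAC9 on chromosome 14 and the stefin A cluster on chromosome 16. On chromosome 16 the median was -0.20 in WT cSCC replicate 1 and -0.10 to 0.12 in the TAp63-/- tumours. On chromosome 12, which holds Gpx2 and Rab15, WT cSCC replicate 1 had -0.23, and 40 of 525 genes were above and 19 below. The part of these shifts in the values of these genes was not tested. DNA copy number was not measured in these libraries.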

How the data were processed

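RNA of 12 mouse libraries was sequenced after Ambion miRVANA extraction and Illumina TruSeq preparation, per the labels' protocols. The submitters' processing notes name TopHat2 2.0, Cufflinks 2.0 and the build mm10. Deposited values are taken as FPKM, and quantile normalization by the authors was inferred from columns that share 1 distribution; neither is stated. Depth per library is unknown. Values of 37924 entries were summed over 34303 symbols, and genes at 1 FPKM or more in 2 of 12 libraries were tested (14752). The 6 tumour libraries were fitted as log2(FPKM + 1), pseudocount 1, with limma 3.58.1 in R 4.3.3 (variance trend, two-sided, Benjamini-Hochberg over all tested genes, threshold 0.05); differences are on this scale and understate changes of low genes. The interaction used all 12 libraries. The procedure was tested on simulated data.

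The members and the 39 gene lists were chosen with earlier results of these data known. The lists hold 584 genes, of which 567 were found by symbol, 9 by Ensembl identifier, and 8 are not analysed here. Named are, without predicted models, pseudogenes, small RNAs, mitochondrial, receptor segment and sex genes, the 10 largest differences per direction among genes without overlap and at 5 FPKM or more in the higher group. Added are the 3 members of each list with the lowest p, the p53 family, Dicer1, the 6 followed-up genes and 3 Skint genes; of the list members by p, not all are printed. Members named for their role or for lacking overlap (Txnrd1, G6pdx, Gsta4, Nqo1, Scd1, Awat1, Smad2 and cell type markers) were chosen after their values were seen. Of the sex list, 4 of 5 genes averaged higher, and TAp63-/- cSCC replicate 1 had the highest list mean. Alternatives changed the pseudocount, filter, scaling, libraries, weights, trend or covariates.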

Additional observations from a re-analysis of the deposited data

Results flagged for a closer look

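In groups of 4 TAp63-/- tumours, the gap between the most extreme library and its neighbour, as a share of the range of log2(FPKM + 1), was above Dixon's 95% critical value for 9 of the 90 gene and list values screened; chance flags about 1 in 20. TAp63-/- cSCC replicate 2 was low for Wnt3 (0.898) and high for Soat1 (0.874), Postn (0.906) and Spp1 (0.850). TAp63-/- cSCC replicate 3 was low for Mup9 (0.922), Flg2 (0.891), Ifit3 (0.918) and Cd3g (0.927), and TAp63-/- cSCC replicate 1 was low for Mcm3 (0.944).

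The genotype difference departed between tumours and skin, by limma's interaction test, for Zfp618 (-3.31), Skint3 (-5.83), Skint4 (-4.61) and Skint9 (-7.40).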

How the results depend on the processing

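No paired analysis was possible because each library has a title of its own and replicate numbers follow accession order. Among the 76 genes screened, 64 kept their direction in every alternative. The calls counted next have limits. With no filter on low values, every called gene had at most 1.85 FPKM in the tumours. A fit without WT cSCC replicate 1 or 2 rests on 1 WT library, so its calls cannot separate genotype from that library. Most entries called there were at or near 0 in the TAp63-/- tumours and the left-out WT tumour. The exceptions included mt-Co1, listed at 0 in WT cSCC replicate 2 only. The count of called genes was 9 with no filter on low values, 1 with all 12 libraries in the fit (Zfp618) and 0 to 11 when libraries were left out in turn: 11 without WT cSCC replicate 1, 5 without WT cSCC replicate 2 (among them Gpx2-ps1, limma adjusted p = 0.034) and 1 without TAp63-/- cSCC replicate 2. Called interactions ran from 1 to 15 over left-out libraries. Non-overlapping genes with a 2-fold difference numbered 146 higher and 290 lower with a pseudocount of 0.1, 14 and 64 with a pseudocount of 5, and 34 and 90 with a mean of at least 5 FPKM. Over left-out libraries they ran from 83 to 338 higher and from 179 to 905 lower. With a mean of at least 5 FPKM the sebaceous median was -1.82. Over left-out libraries, medians ran from -1.79 to -0.16 (sebaceous), 0.53 to 2.19 (stefin A), -0.67 to 0.35 (DNA replication), -0.45 to 0.43 (followed-up genes), -4.65 to 1.65 (hair shaft) and -1.39 to 0.42 (suprabasal). Orc1 turned to -0.27 with the muscle list mean as covariate and -0.12 with the hair list mean, and Skint3 to 0.19 with the muscle list mean. Leaving out WT cSCC replicate 1 or 2 in turn moved the difference of Trp73 to 1.54 or -0.25, Kif18b to 0.25 or -1.20, Orc1 to 0.61 or -0.41, Pkmyt1 to 0.15 or -0.49, Skint3 to -0.82 or 0.088, Krt6b to -2.05 or 0.46, Ccnb1 to 0.069 or -0.96, Mcm3 to 0.020 or -1.40, Stfa2 to -0.022 or 3.08, Krt35 to -4.30 or 0.82 and Cd3g to -2.39 or 0.21; Plk1 turned to 0.15 without the first. Causes were not tested. Depth is unknown, and 2 WT tumours limit every comparison.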

Other observations

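The entry AL606528.1, a long intergenic RNA on chromosome 13 that the rule for named genes leaves out and that was chosen after its values were seen, was listed at 0.00188 and 0 FPKM in the WT tumours and had 11.3, 13.1, 15.4 and 4.42 in the TAp63-/- tumours (log2 difference 3.48, SE 0.47, limma adjusted p = 0.685). WT skin had at most 0.00309 FPKM, and TAp63-/- skin had 0.0165, 5.54 and 8.27.

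The genes mt-Co1, mt-Co3, mt-Atp6 and mt-Atp8 were listed at 0 in part of the tumours. It was 4 of these 4 in WT cSCC replicate 2, 3 in TAp63-/- cSCC replicate 1 and 0 in the other 4 tumours. In those other 4 the mitochondrial share of all FPKM was 29.4% to 32.3%. The part of these zeros in the values of other highly ranked genes, such as Krt6a and BC100530, was not tested.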
